A study of Mus musculus with 48 samples.

Results

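The interleukin 1 system and the inflammasome were followed through 10 genes, taken by symbol from the 24062 genes of the count tables. They are the ligands Il1a, Il1b and Il18, the antagonist Il1rn, the receptor subunits Il1r1 and Il1rap, and the inflammasome genes Nlrp3, Pycard, Casp1 and Gsdmd. All 47 libraries read hold poly(A) RNA of C57BL/6 mice, from the medial part of the prefrontal cortex. Drinking mice had voluntary access to 15% (v/v) ethanol on alternate days over 60 days, with water alone on the days between, and were killed once the bottles had been removed. Control mice had water for 60 days. Of each drinking or water mouse, 1% of the tissue suspension was kept as homogenate and the remainder went through dissociation, a 30% Percoll step and capture on magnetic beads carrying an antibody to CD11b (the Itgam product). A further cohort received an intraperitoneal injection of 1.5 mg/kg bacterial lipopolysaccharide (LPS) or of saline and was killed 1 week later, and from it only bead-isolated cells are available here. The groups hold 9 water homogenates, 10 ethanol homogenates, 8 water microglia, 10 ethanol microglia, 5 saline microglia and 5 LPS microglia. These beads also bind border macrophages, monocytes and neutrophils, so "microglia" below names the preparation. No source used here gives age or sex.

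Interleukin 1 alpha and interleukin 1 beta signal through the same receptor, Il1r1, which needs the accessory chain Il1rap, and Il1rn encodes the antagonist that occupies the receptor without signalling. Interleukin 1 beta and interleukin 18 are made as precursors. The sensor Nlrp3 and the adaptor Pycard assemble the inflammasome on which caspase 1 (Casp1) cuts both precursors and Gsdmd, whose freed end forms pores in the cell membrane. In myeloid cells transcription of Il1b and Nlrp3 rises after stimulation of NF-kappaB, whereas Pycard and Casp1 are made more steadily.

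In GRCm38, Il1a (chr2:129299610-129309972, minus strand) and Il1b (chr2:129364570-129371139, minus strand) are neighbours on chromosome 2 with 54597 bases between them. On the same chromosome lies Il1rn (chr2:24336853-24351494, plus strand). Il1r1 is at chr1:40225080-40317257, Il1rap at chr16:26581704-26730117, Il18 at chr9:50554827-50581840, Casp1 at chr9:5298517-5307265, Nlrp3 at chr11:59541568-59566956 and Gsdmd at chr15:75862327-75867408, all on the plus strand. Pycard is at chr7:127989708-127993867 on the minus strand. All 10 are protein-coding genes. Exons of Il1a, Il1b, Il1rap and Pycard overlap an antisense gene (Gm14023, Il1bos, Gm20319 and Gm45205), and the strand setting of the counting is not given, so a part of their counts may belong to these partners.

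Promoters of Il1a and Il1b, the ligands with the highest and the second highest microglial level, and of Il1rap, which went the other way between preparations, are shown to set the opposite directions in the data below side by side. Each is the RefSeq sequence (GRCm38.p6) from 250 bases before to 50 bases after the transcript start, 5′ to 3′ on the gene's strand. Capitals mark TATAAA, the AP-1 motif TGANTCA, the PU.1 core GAGGAAG and the GC box GGGCGG, searched on both strands. The motifs were chosen after the windows had been seen. The GC box was the last choice, made once the CG-rich Il1rap window was known, and it took the place of a pair of looser NF-kappaB-like patterns. The first of these had 6 matches in Il1rap and is held by 50.8% of windows, the next had 1 match there and is held by 20.7%, and neither matched in Il1a or Il1b.
Il1a, chr2:129309923-129310222: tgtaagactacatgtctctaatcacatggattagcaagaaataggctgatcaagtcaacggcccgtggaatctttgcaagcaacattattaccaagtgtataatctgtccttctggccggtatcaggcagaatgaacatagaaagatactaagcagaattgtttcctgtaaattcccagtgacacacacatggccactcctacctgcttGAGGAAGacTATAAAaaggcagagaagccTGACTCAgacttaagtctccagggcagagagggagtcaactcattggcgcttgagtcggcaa
Il1b, chr2:129371090-129371389: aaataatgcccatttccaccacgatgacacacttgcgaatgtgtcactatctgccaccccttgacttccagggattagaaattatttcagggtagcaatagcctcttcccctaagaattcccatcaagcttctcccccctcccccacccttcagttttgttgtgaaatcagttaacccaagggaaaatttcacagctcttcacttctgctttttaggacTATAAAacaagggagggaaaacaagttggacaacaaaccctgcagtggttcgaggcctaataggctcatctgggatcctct
Il1rap, chr16:26581455-26581754: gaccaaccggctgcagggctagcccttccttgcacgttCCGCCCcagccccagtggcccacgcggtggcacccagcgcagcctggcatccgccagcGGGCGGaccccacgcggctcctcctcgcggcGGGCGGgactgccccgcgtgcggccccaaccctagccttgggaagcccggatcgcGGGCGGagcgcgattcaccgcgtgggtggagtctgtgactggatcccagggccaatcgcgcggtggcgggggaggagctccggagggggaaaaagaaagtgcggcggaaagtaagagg
The Il1a and Il1b windows hold TATAAA at -32 and -31 from the start, a motif present in 13.6% of 32851 windows of that length. Il1a also holds TGANTCA at -12 (7.81% of windows) and GAGGAAG at -41 (13.6% of windows). The Il1rap window has no TATAAA. It holds the GC box at 4 places, the first at -212 (35.7% of windows hold 1 or more), and 33 CG pairs, a number reached by 8.56% of windows, against 5 in Il1a and 3 in Il1b. Of the 10 genes 9 have a promoter in the table, and these matches describe letters, not bound factors. GGGCGG was in a window of 3 of them, Il1rap, Il1r1 and Pycard, although Pycard was higher in microglia. The Il1r1 window at chr1:40224830-40225129 holds no GGGCGG and 5 CG pairs. TATAAA was in a window of 4 genes, and Nlrp3, higher in microglia like Il1a, was not among them. The 3 windows shown therefore do not stand for the other genes.

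Libraries held 9.72 to 67.5 M counts in genes (M, 1000000), with a median of 30.5 M. The 12 microglia markers together reached 27385 to 38418 CPM (counts per 1000000 counts in genes) in the 28 microglial libraries and 547 to 704 CPM in the 19 homogenates, and neuron markers summed to at least 9166 CPM in every homogenate. The labels of 4 water homogenates (mice 21, 24, 25 and 26) carry the text of the bead protocol, yet their neuron markers summed to at least 10921 CPM and their microglia markers to at most 696 CPM. Among water microglia, the library of mouse 19 stood apart with a neutrophil marker sum of 17668 CPM against a group median of 985 CPM, and that of mouse 24 was the shallowest. The homogenates of water mice 25 and 26 held the highest endothelial sum (1003 CPM) and the highest oligodendrocyte sum (12436 CPM) of their group.

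Preparation was the factor that separated most of these genes. In water microglia Il1a ran from 683 to 1130 CPM with a median of 971 CPM, and in water homogenates from 0.571 to 3.32 CPM with a median of 1.17 CPM. Il1b ran from 52.1 to 229 CPM (median 89.9 CPM) in water microglia, against 0 to 0.571 CPM (median 0.202 CPM) in water homogenates. Nlrp3 ran from 519 to 886 CPM (median 729 CPM) against 0.734 to 2.03 CPM (median 1.39 CPM). For none of the 3 genes did any microglial library come near a homogenate. Only 116 of the 24062 genes had a higher mean CPM than Il1a in water microglia.

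**Figure D1:**
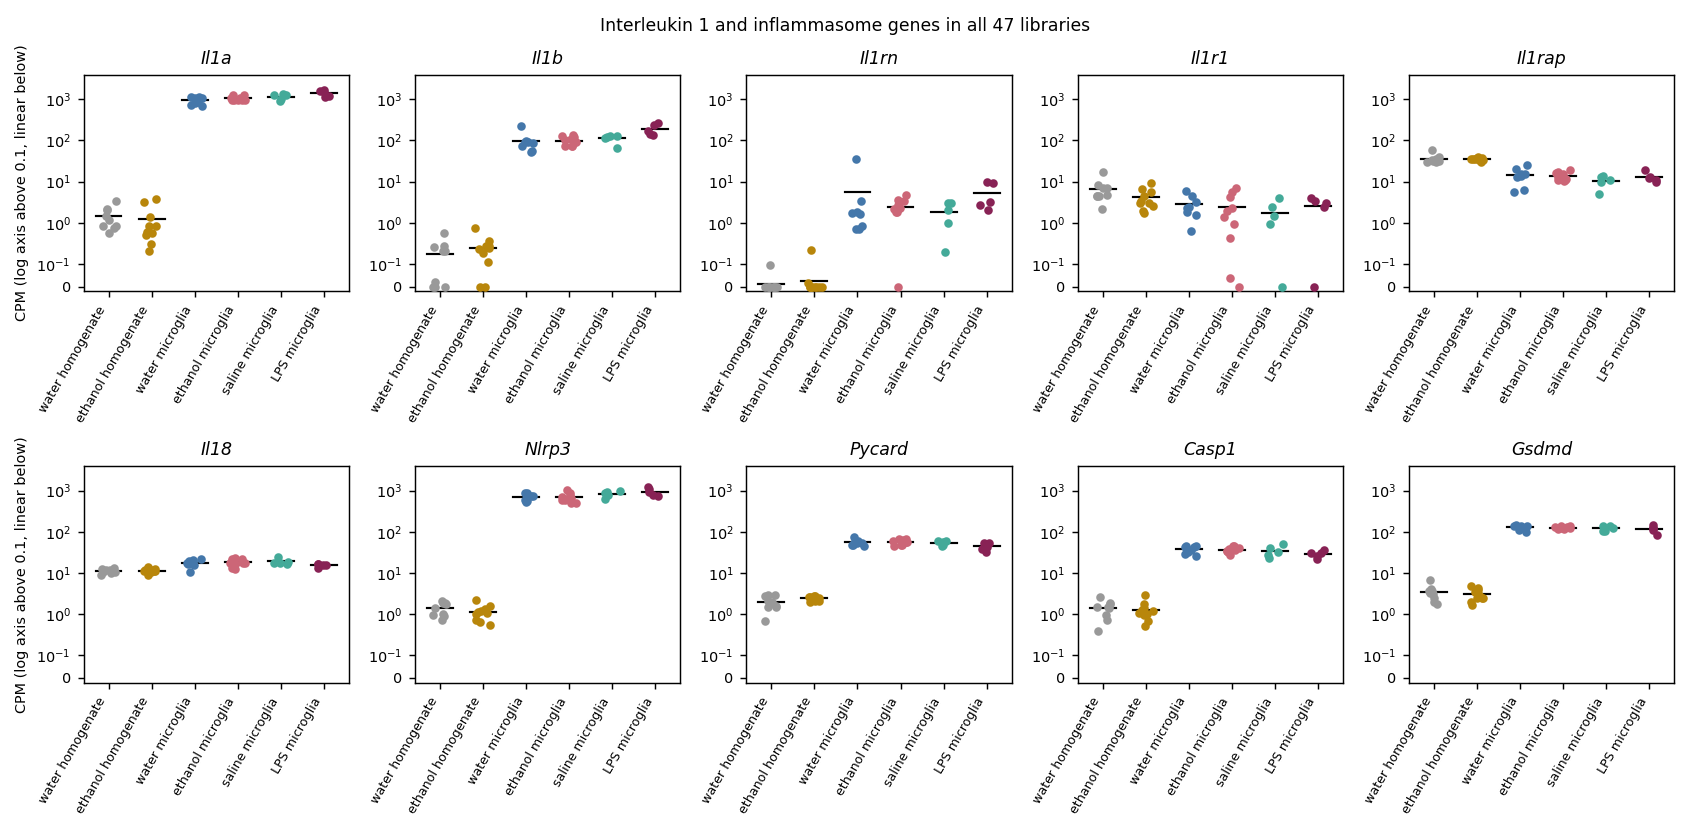
CPM of the 10 genes in each of the 47 libraries (points; log axis above 0.1 and linear below), by group, with the group mean as a bar. Il1a, Il1b and Nlrp3 are far apart between homogenates and microglia, Il18 is nearly level, and Il1rap is higher in homogenates.

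In water mice all 10 genes passed the test of microglia against homogenate, 8 higher and 2 lower, where 84.4% of 15057 genes tested passed, 35.3% higher and 49.1% lower. The log2 fold changes were 9.40 (SE 0.38, adjusted p = 6.76e-14) for Il1a, 9.40 (SE 0.62, adjusted p = 7.69e-11) for Il1b and 9.06 (SE 0.25, adjusted p = 3.71e-16) for Nlrp3. The other inflammasome genes rose less: Gsdmd by 5.30 (SE 0.22), Pycard by 4.86 (SE 0.23) and Casp1 by 4.80 (SE 0.29), with the largest adjusted p at 2.76e-11. Il18 was 17.8 ± 3.71 CPM (SD, n = 8) in microglia and 11.1 ± 1.42 CPM (SD, n = 9) in homogenate, which is 0.75 on the log2 scale (SE 0.13, adjusted p = 2.76e-05), with overlapping groups. Il1b and Il1rn have so few homogenate counts (65 and 4 reads over the 9 libraries) that they entered the fit through microglia, and so had to differ.

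The receptor subunits went the other way. Il1rap ran from 30.0 to 57.9 CPM (median 34.3 CPM) in water homogenates and from 5.60 to 25.6 CPM (median 14.3 CPM) in water microglia, with no overlap, and its fitted log2 difference was -1.26 (SE 0.24, adjusted p = 0.000106). Il1r1 ran from 2.20 to 17.2 CPM (median 4.65 CPM) in homogenates and from 0.626 to 5.91 CPM (median 2.37 CPM) in microglia, and the groups overlapped. Its log2 fold change was -1.19 (SE 0.42, adjusted p = 0.0138), and the call was lost without water mice 19 and 24, where the value was -0.96 (adjusted p = 0.0664) and 84.3% of genes were called. In bulk libraries fewer cells of a type and less RNA per cell cannot be told apart.

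Ethanol mice gave the same directions for the genes called. Of 9 genes tested, 7 were higher and 1 lower, where 84.5% of 14637 genes passed, 38.8% higher and 45.6% lower. Il1b, among the 7, had 90 reads over the 10 ethanol homogenates. It entered the fit through microglia and had to come out higher, so its value is only a description. The log2 fold changes were 9.85 (SE 0.49) for Il1a, 8.88 (SE 0.36) for Il1b, 9.41 (SE 0.28) for Nlrp3, 0.87 (SE 0.11) for Il18 and -1.15 (SE 0.11) for Il1rap. Il1r1 was not called, at -0.64 (SE 0.67, adjusted p = 0.372), although limma voom, which called 87.1% of genes, called it at -1.904 (adjusted p = 0.0233). Il1rn was below the filter on low counts.

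The homogenate holds microglial RNA too, so its level can be read against that of the microglia markers. In water mice the 12 markers had a homogenate level of 1.57% to 3.95% of their microglial level, with a median of 1.78%. The highest of these was Sall1, and the other 11 reached at most 2.22%. Gsdmd at 2.65%, Pycard at 3.60% and Casp1 at 3.74% lay above those 11 and below Sall1. Il1a at 0.156%, Il1b at 0.175% and Nlrp3 at 0.195% lay far below all 12. Il18 was at 62.7%, Il1r1 at 239% and Il1rap at 252%. In ethanol mice Il1a was at 0.118%, Nlrp3 at 0.164% and Il1b at 0.243%, against 1.57% to 3.78% for the markers. Gsdmd at 2.38% and Casp1 at 3.48% lay below Sall1 again, while Pycard at 4.28% lay above all 12 markers.

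To put an error on these shares, library sizes were set by the summed counts of the 12 microglia markers, a scaling chosen after the shares had been seen. It restates them on the log2 scale and is no separate test of them. Under it the markers moved by -1.11 to 0.22 on the log2 scale in water mice, and 97.5% of 15057 genes were called, 0.95% higher and 96.6% lower in microglia. Il1a was at 3.58 (SE 0.29), Nlrp3 at 3.24 (SE 0.20) and Il1b at 3.45 (SE 0.80). Il1b again entered through microglia alone, in water and in ethanol mice, so that its value is only a description. Pycard (-0.95, SE 0.22), Casp1 (-1.06, SE 0.31) and Gsdmd (-0.53, SE 0.21) were called lower, and Il18 fell by 5.11. With the mouse as a block Gsdmd was no longer called, at -0.45 (adjusted p = 0.0624) in water mice (97.2% of genes called) and -0.29 (adjusted p = 0.134) in ethanol mice (97.7% of genes called). In ethanol mice, where 98.2% of 14637 genes were called, 1.12% higher and 97.1% lower, Il1a was at 3.89 (SE 0.44), Nlrp3 at 3.48 (SE 0.25) and Il1b at 2.94 (SE 0.47). Without mice 19 and 24, in a fit that called 97.6% of genes, Il1rn went from 3.68 to 1.48 in water mice (adjusted p = 0.161), while Il1a was at 3.59, Nlrp3 at 3.25 and Il1b at 3.09.

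The homogenate portion was set aside before dissociation, Percoll and bead binding. Isolation and preparation therefore differ together, and whether transcripts changed during isolation cannot be told apart from other differences between the preparations. Neutrophil markers also rose with this scaling, by a median of 3.78 in water mice (10 of 11 called higher) and 0.95 in ethanol mice (7 of 11 called higher), and their part in the Il1b value was not tested. The water group holds mouse 19, with a neutrophil sum of 17668 CPM against a group median of 985 CPM. Markers with almost no homogenate reads, such as Ngp (median 0.0217 CPM in water homogenates), entered through microglia. Their values are only a description.

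**Figure D2:**
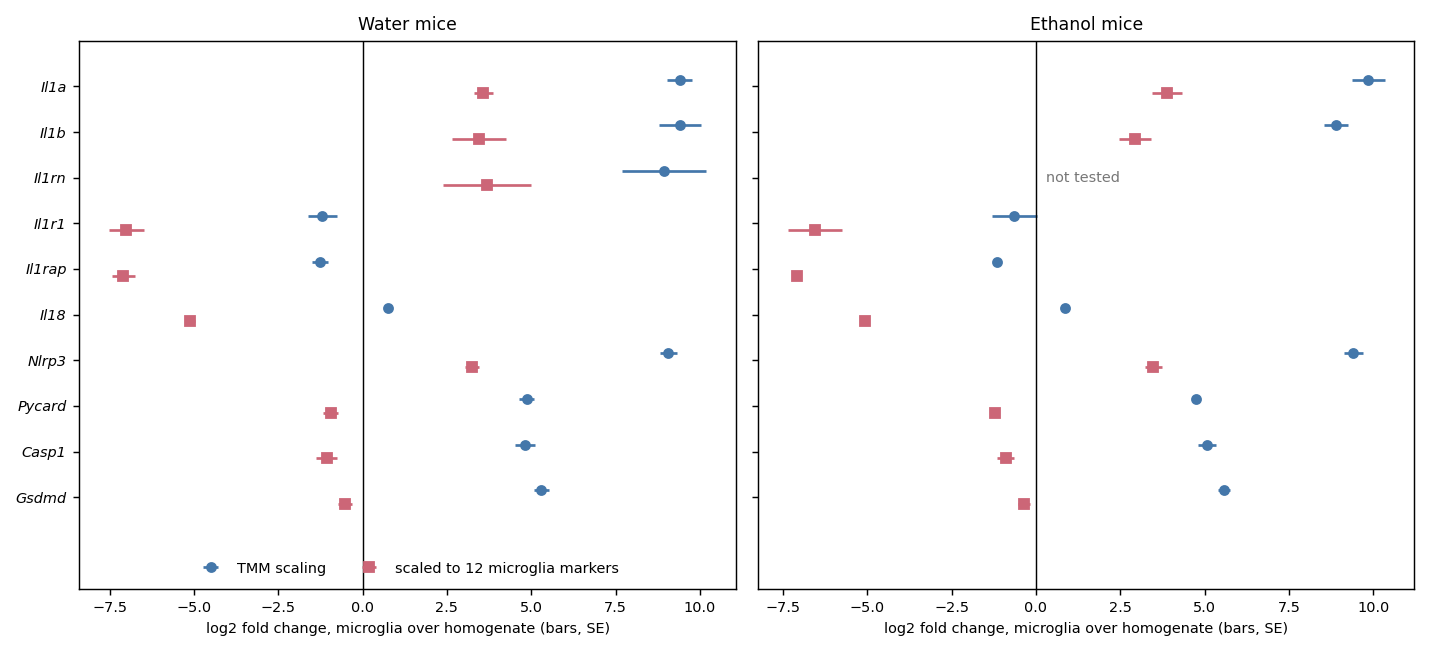
log2 fold change of microglia over homogenate (bars, SE) in water mice and ethanol mice, with TMM scaling (circles) and with library sizes set by 12 microglia markers (squares). Under marker scaling Il1a, Il1b and Nlrp3 lie between 2.94 and 3.89 while Pycard, Casp1 and Gsdmd lie between -1.21 and -0.36.

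The rest of the pathway was counted from fixed lists. In water mice 18 of 22 genes of interleukin 1 receptor signalling were higher in microglia and 2 lower, where 35.3% of all genes were higher and 49.1% lower, with a median log2 fold change of 1.76 against -0.37 over all genes. Nfkbiz, a nuclear IkappaB protein, rose by 7.73 (SE 0.13), Tnfaip3, a brake on NF-kappaB, by 7.51 (SE 0.15), and Myd88, the receptor adaptor, by 4.404 (SE 0.11). The lower genes were Ube2n (-1.70) and Ube2v1 (-1.35), the ubiquitin-conjugating pair. With marker scaling, 2 of the 22 were called higher, Nfkbiz (1.88, SE 0.12) and Tnfaip3 (1.65, SE 0.14), and 19 lower, Myd88 among them (-1.44, SE 0.14), where 0.95% of all genes were higher and 96.6% lower.

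Of 13 other inflammasome sensors and adaptors tested, 11 were higher and 2 lower, against 35.3% and 49.1% of all genes, with a median of 5.43. With marker scaling 1 was higher and 6 lower, where 0.95% of all genes were higher and 96.6% lower. The median was then -0.40 against -6.22 over all genes. Naip2 (6.11, SE 0.16) and Naip5 (6.43, SE 0.18), sensor proteins for bacterial ligands, and P2rx7 (4.52, SE 0.12), the ATP-gated channel upstream of Nlrp3, had the smallest p among those higher. Brcc3 (-0.94) and Panx1 (-0.50) were lower. Of 10 other inflammatory caspases and lytic death genes, 8 were higher and none lower, against 35.3% and 49.1% of all genes. With marker scaling 2 were higher and 6 lower, against 0.95% and 96.6% of all genes. The 8 were led by Card9 (6.47, SE 0.14), Casp8 (5.35, SE 0.17) and Casp4 (7.95, SE 0.40), the caspase that senses cytosolic LPS.

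Among 6 other receptors of the family tested, 3 were higher and 3 lower, against 35.3% and 49.1% of all genes. With marker scaling 3 were lower and no other was called, where 0.95% of all genes were higher and 96.6% lower. Il1rl2, the interleukin 36 receptor, rose by 5.27 (SE 0.39), from 0.596 ± 0.515 CPM (SD, n = 9) in homogenate to 22.2 ± 4.17 CPM (SD, n = 8) in microglia. Il1rl1, the receptor of interleukin 33, rose by 5.42 (SE 0.52) and Il18rap by 6.83 (SE 1.08). Il1rapl1, a synaptic adhesion protein in neurons, was 9.004 ± 1.16 CPM (SD, n = 9) in homogenate and 0.00531 ± 0.0150 CPM (SD, n = 8) in microglia, and its relative Il1rapl2 had no read in any water microglia. Il33, a nuclear cytokine of glia, was lower (-3.04, SE 0.37), and the decoy receptor Il1r2 was higher (7.88, SE 1.35) with a spread of 27.2 ± 60.5 CPM (SD, n = 8) in microglia. In homogenate Il18rap and Il1r2 had means of 0.0721 and 0.108 CPM, so they entered the fit through microglia. Il1rapl1 and Il1rapl2 entered it through homogenate. The calls of these genes had to come out as they did, and their values are only a description.

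Levels were ordered by CPM per kilobase of exon. The length is the union of exons over all annotated transcripts, such as 3800 bases for Pycard and 1497 for Casp1. A gene whose main transcript is shorter than this union comes out too low, so the order depends on the annotation. By mean CPM in water microglia Pycard, at 54.9, lay above Casp1 at 37.3 and Il18 at 17.8. In water microglia Il1a led with 474 ± 92.2 (SD, n = 8), before Nlrp3 at 174 ± 33.6, Gsdmd at 53.9 ± 6.49, Il1b at 50.95 ± 29.3 and Casp1 at 24.9 ± 5.09. Il18 at 17.2 ± 3.60, Pycard at 14.4 ± 2.39, Il1rap at 1.26 ± 0.586, Il1rn at 1.03 ± 2.12 and Il1r1 at 0.438 ± 0.267 followed. Neighbours in this order overlapped within 1 SD, except Il1a and Nlrp3, Nlrp3 and Gsdmd, and Pycard and Il1rap. Without mouse 19 Il1rn was at 0.280 ± 0.173 (SD, n = 7), below Il1r1 at 0.446 ± 0.287 and Il1rap at 1.12 ± 0.463, and Il1b was at 41.1 ± 9.75, clear of Casp1 at 25.7 ± 4.89. In water homogenates Il18 led with 10.8 ± 1.37 (SD, n = 9) and Il1rap was next with 3.17 ± 0.765. Per length, Il1a exceeded Il1b in all 28 microglial libraries, with a median ratio of 11.7 in water, 10.2 in ethanol, 9.70 in saline and 8.07 in LPS microglia. The lowest ratio, 2.88, belonged to water microglia.

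**Figure D3:**
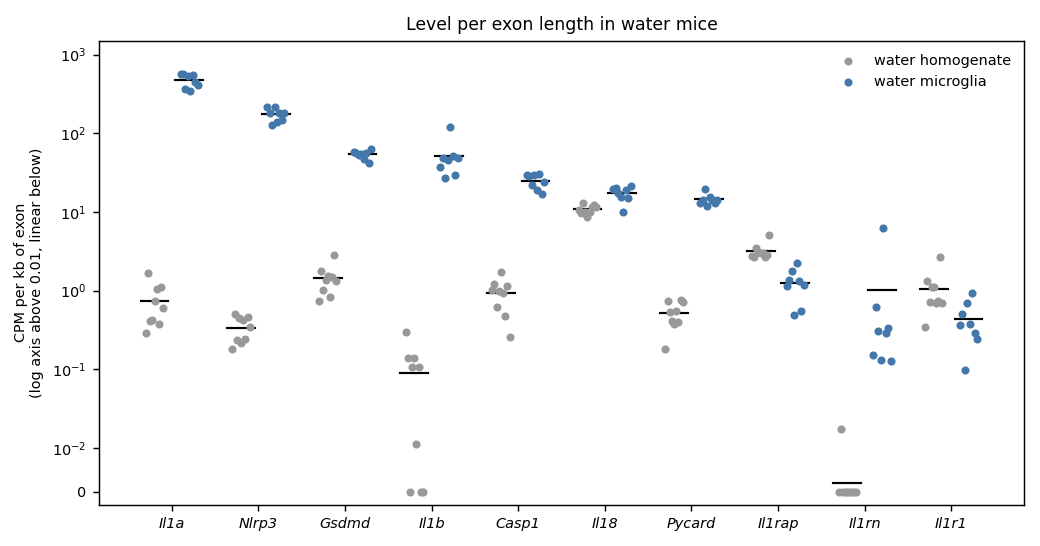
Level per exon length (CPM per kb, log axis above 0.01 and linear below) of the 10 genes in water homogenates and water microglia, with a point per library and the mean as a bar. Exon length is the union over all annotated transcripts. Genes are ordered by their mean in microglia, from Il1a at 474 to Il1r1 at 0.438, and Il18 leads in homogenate at 10.8.

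Ethanol drinking changed none of the 10 genes in microglia by the test, where 1 of 13223 genes (0.00756%) passed and 1011 had an unadjusted p under 0.05, with none of the 10 among them. Il1a ran from 683 to 1130 CPM (median 971 CPM) with water and from 941 to 1268 CPM (median 988 CPM) with ethanol, which the fit put at 0.13 on the log2 scale (SE 0.10, adjusted p = 0.808). Il1b ran from 52.1 to 229 CPM (median 89.9 CPM) with water and from 71.8 to 133 CPM (median 97.1 CPM) with ethanol, at 0.0013 (SE 0.21, adjusted p = 1.00). The groups overlapped for all 10 genes, and 0.0151% of genes had groups that did not.

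Nlrp3 was 705 ± 136 CPM (SD, n = 8) with water and 690 ± 172 CPM (SD, n = 10) with ethanol, at -0.06 (SE 0.13). Gsdmd, with the smallest error, was at -0.05 (SE 0.06), Casp1 at -0.05 (SE 0.11), Pycard at 0.0046 (SE 0.10) and Il18 at -0.0033 (SE 0.15). Il1rn had the largest value, -1.26 (SE 0.75, adjusted p = 0.716). It turned to 0.61 without water mouse 19, whose Il1rn was 34.7 CPM against at most 3.42 CPM in the other 7 water microglia. Between these groups oligodendrocyte markers had positive values in 10 of 10 (median 0.64), neutrophil markers in 1 of 11 (median -2.26) and monocyte markers in 1 of 10 (median -1.25), none called, and their part in these values was not tested. The water group holds mouse 19, with a neutrophil marker sum of 17668 CPM. The group medians of the sums were higher with ethanol. They were 985 CPM with water and 1165 CPM with ethanol for neutrophil markers, and 452 and 484 CPM for monocyte markers. Of the 5 pathway lists, none had a gene called, and the median over the signalling list was 0.00046 against -0.01 over all genes.

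In homogenate 8 of the 10 genes could be tested, since Il1b and Il1rn were below the filter, and none was called, where 0.808% of 15215 genes passed. Il1r1 ran from 2.20 to 17.2 CPM (median 4.65 CPM) with water and from 1.77 to 9.28 CPM (median 3.19 CPM) with ethanol, at -0.65 (SE 0.35, adjusted p = 0.362). The 17.2 CPM belonged to water mouse 25, and leaving out 1 library at a time gave Il1r1 values from -0.87 to -0.34. Il18 was at 0.04 (SE 0.08), Il1rap at -0.01 (SE 0.10) and Pycard at 0.30 (SE 0.20, adjusted p = 0.470). Oligodendrocyte markers had negative values with ethanol in 10 of 10, with a median of -0.72 and none called. Endothelial markers had positive values in 2 of 10, with a median of -0.08 and none called. The part of these cells in the values above was not tested. The ethanol response of microglia did not differ from that of homogenate by the interaction test for any of the 10 genes, where 0.342% of 15797 genes passed, with adjusted p from 0.558 to 1.00. With the mouse as a block, which pairs the preparations, edgeR called 0 of 15749 genes, and 1132 had an unadjusted p under 0.05.

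Il1b was the gene that stood out 1 week after LPS. Saline microglia had Il1b levels of 66.0, 116, 119, 128 and 129 CPM, and LPS microglia had 133, 141, 170, 237 and 258 CPM. Every LPS library lay above every saline library, as 0.978% of 12469 genes did. The log2 fold change was 0.76 (SE 0.20, p = 0.00142), and the adjusted p was 0.339 by edgeR, so the gene was not called, while DESeq2, which called 0.537% of genes, called it at 0.77 (adjusted p = 0.0211). By edgeR 0.016% of genes, 2 in number, were called, and none of the 10 was among them.

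Il1a was 934, 1003, 1263, 1281 and 1336 CPM after saline and 1115, 1220, 1546, 1603 and 1702 CPM after LPS, overlapping groups with a log2 fold change of 0.31 (SE 0.13, p = 0.0324, adjusted p = 0.842). Il1rn was 0.192, 1.00, 2.08, 2.95 and 3.02 CPM after saline and 2.07, 2.73, 3.18, 9.12 and 9.73 CPM after LPS, at 1.55 (SE 0.87, adjusted p = 0.932). LPS mice 40 and 50 were highest for both Il1b and Il1rn. Il18 moved opposite in value, with 16.6 to 24.7 CPM after saline and 12.8 to 16.5 CPM after LPS and no overlap, which 1.65% of genes showed in either direction, at -0.30 (SE 0.25, adjusted p = 0.987). Nlrp3 was at 0.20 (SE 0.15), Pycard at -0.28 (SE 0.18), Casp1 at -0.25 (SE 0.23) and Gsdmd at -0.08 (SE 0.15).

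Monocyte markers had positive values in 10 of 10, with a median of 0.67, and summed to 655 to 1063 CPM after LPS against 557 to 832 CPM after saline. Neutrophil markers were positive in 10 of 11, with sums of 1061 to 1259 CPM against 775 to 1234 CPM, and microglia markers in 1 of 12. None of these markers was called, and their part in the Il1b difference was not tested.

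**Figure D4:**
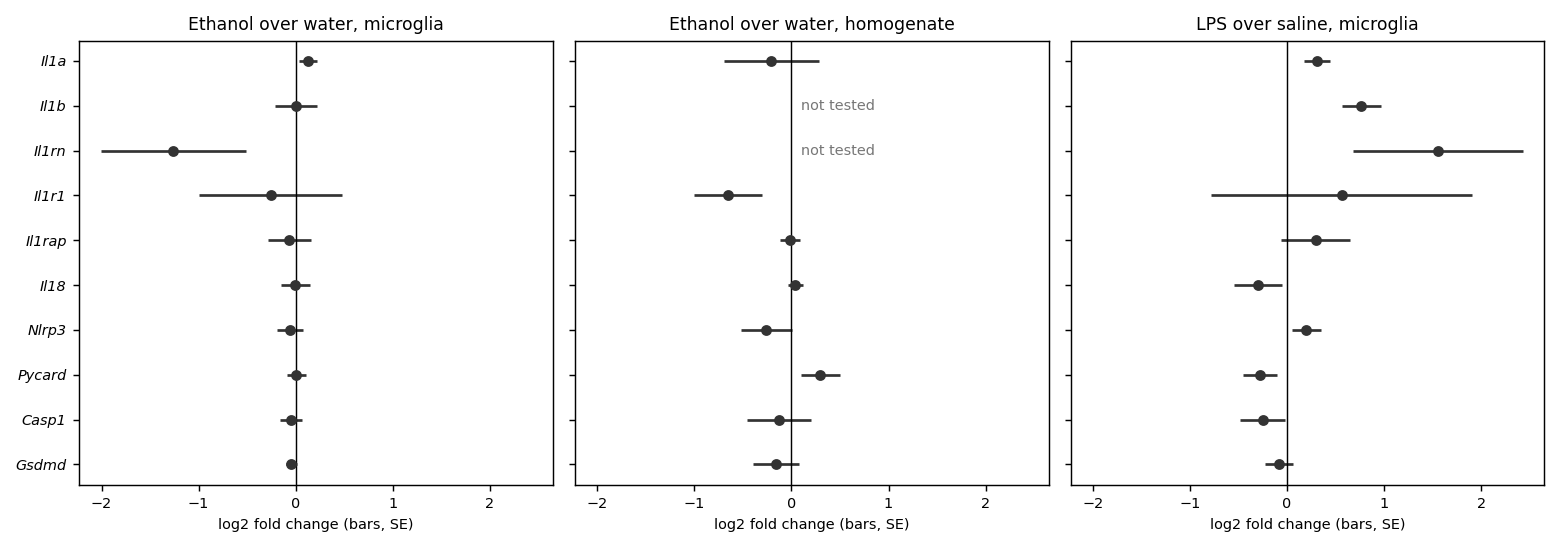
log2 fold change (bars, SE) of the 10 genes for ethanol over water in microglia, ethanol over water in homogenate and LPS over saline in microglia. Il1b at 0.76 after LPS is the value farthest from 0 in units of its error, and no gene was called by edgeR in any of the panels.

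Saline and water microglia placed the control levels. They differ in cohort, injection and bottles together, and mostly also in the set that the sheet numbers in the file names define. None of the 10 genes differed by the test, where 0.832% of 13218 genes passed. Il1a was at 0.36 (SE 0.13, adjusted p = 0.278) and Nlrp3 at 0.27 (SE 0.13, adjusted p = 0.423), higher after saline. In order of mean CPM, Il1a was highest in LPS (1437 ± 255, SD, n = 5), then saline (1164 ± 182, SD, n = 5), ethanol (1046 ± 119, SD, n = 10) and water microglia (936 ± 182, SD, n = 8), and no neighbours in this order passed their test where one was made. Of the 5 pathway lists, only Nfkb1, an NF-kappaB subunit, was called between saline and water (0.35, SE 0.07, adjusted p = 0.0298).

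The 8 relations between a gene and a marker sum or another gene were chosen after the values had been seen. Within groups, Il1r1 in homogenates went with endothelial markers. Across 19 homogenates, on log2(CPM + 1) with group means removed, Pearson's r was 0.85 and Spearman's rho 0.73 (permutation test within groups, adjusted over 8 relations, p = 0.00016 and 0.00336). Pearson's r was 0.70 without the 2 libraries farthest out, water mouse 25 and ethanol mouse 14. It was 0.66 within the first and 0.98 within the second of the sets that the sheet numbers in the file names define. The second set holds both of these libraries, so its 0.98 is no check apart from them. Il1a and Nlrp3 went together across 28 microglial libraries (r = 0.72, rho = 0.72, permutation adjusted p = 0.0002 and 0.00112; r = 0.67 without the 2 farthest), at 0.76 within the 8 libraries of the first set and 0.18 within the 7 of the second, so the relation did not hold within the second. The same pair gave r = 0.70 and rho = 0.61 across the 19 homogenates (permutation adjusted p = 0.00365 and 0.0225), 0.53 without the 2 farthest, and 0.63 and 0.52 within sets of 8 libraries each.

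Il1b and neutrophil markers gave r = 0.66 and rho = 0.33 over the 28 microglial libraries (permutation adjusted p = 0.0279 and 0.0954). It was 0.22 without water mouse 19, 0.64 without water mouse 24 and 0.14 without both, so the pooled value rested on mouse 19. In subsets that do not hold mouse 19, r was 0.71 within the 10 ethanol microglia and 0.88 within the 7 libraries of the second set. Il1b was 229 CPM in that library and at most 97.2 CPM in the other 7 water microglia. Without mice 19 and 24, Il1b in water microglia was 82.1 ± 17.2 CPM (SD, n = 6) and Il1rn 1.50 ± 1.04 CPM (SD, n = 6). Il1rap and oligodendrocyte markers gave r = 0.63 in homogenates, 0.12 without water mice 26 and 17, and 0.49 and 0.81 within the first and second set. The second set holds mouse 26, and r was 0.79 within water and 0.18 within ethanol homogenates. Over the 28 microglial libraries Il1rn and neutrophil markers gave r = 0.73 (permutation adjusted p = 0.0721), and 0.042 without water mouse 19. Over the same libraries Il1b and Il1a gave r = 0.22 (permutation adjusted p = 0.352), and 0.68 without water mouse 19. Casp1 and Pycard gave r = 0.27 there (permutation adjusted p = 0.208).

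**Figure D5:**
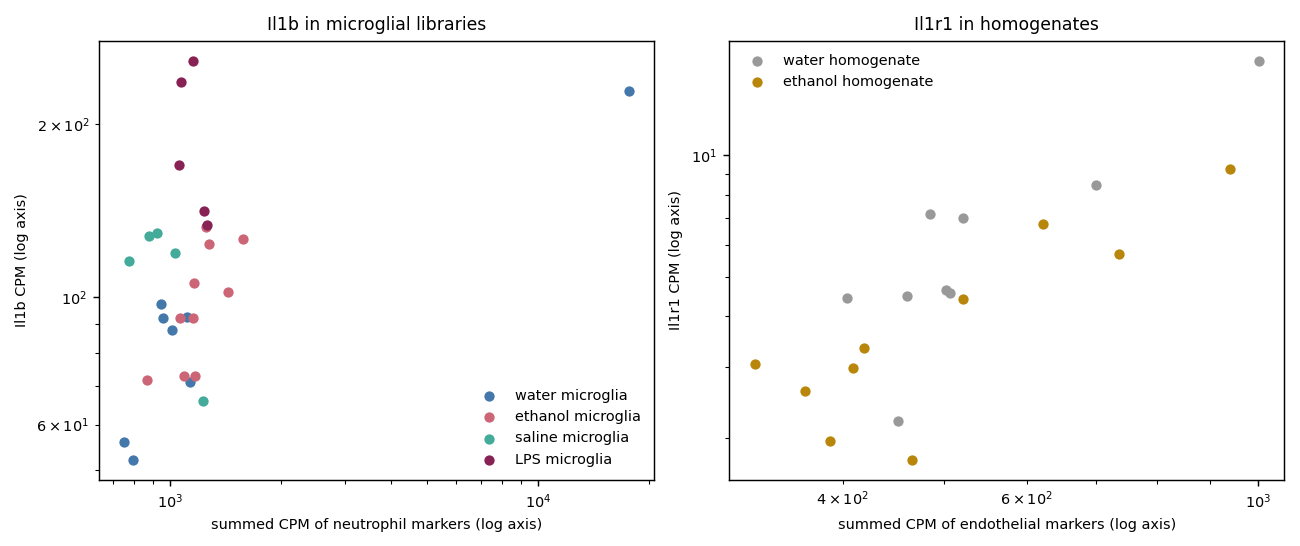
Left, Il1b CPM against the summed CPM of neutrophil markers in 28 microglial libraries; right, Il1r1 CPM against the summed CPM of endothelial markers in 19 homogenates; all axes are log. One water library lies far right at 17668 CPM of neutrophil markers, and Il1r1 rises along with endothelial markers up to 17.2 CPM.

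Likeness of pattern was taken over the 28 microglial libraries with group means removed, among 9373 genes with a mean of at least 5 CPM. Il1b was closest to Gp49a (r = 0.88), Plaur (0.85), Tnfaip2 (0.84), Igsf6 (0.84) and Cxcl2 (0.83). Without water mice 19 and 24 these were 0.78, 0.73, 0.77, 0.68 and 0.69. Vcam1 (0.79), Cd83 (0.79) and Litaf (0.78) then came first. Nlrp3 was closest to Kdm6b (0.89), Nfkb2 (0.88), Zc3h12a (0.87), Eif5 (0.86) and Stat3 (0.86). Il18 was closest to Jag2 (0.70), Fbrsl1 (0.70), Slc19a1 (0.69), Dmtf1 (0.68) and Arhgap22 (0.67). With the same 2 mice left out the values for Il18 were 0.54, 0.49, 0.69, 0.68 and 0.51, and those for Nlrp3 ran from 0.86 to 0.88. These values are descriptions over libraries of 1 preparation, whose totals ran from 9.72 to 39.9 M counts.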

How the data were processed

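Each library has 1 deposited table of raw read counts, with 24062 genes and 5 tally rows that stayed out of totals and tests. Per the labels' protocols, NEBNext Ultra Directional libraries from poly(A) RNA (15 PCR cycles) were sequenced as 75-base read pairs on a NextSeq 500. Per the submitters' processing notes, STAR, HTSeq, FastQC, DESeq2 and bcl2fastq 2.15.0.4 were used by the authors on mm10. Neither annotation nor strand setting is stated. Of 48 listed samples, the microglial library of water mouse 26 was not analysed here.

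Groups compared were fitted alone with edgeR 4.0.16 in R 4.3.3 (quasi-likelihood F-test, TMM scaling, filterByExpr, Benjamini-Hochberg adjustment over all genes tested, called under 0.05). Adjusted p-values come from it except where the text names DESeq2 or limma. SE is the log2 fold change over the square root of F. CPM is the count over the library's total in genes, scaled, and exon lengths are unions over all transcripts of a gene in GENCODE M21. The fits were tested on simulated data. DESeq2 1.42.0, limma voom 3.58.1, RLE scaling, other filters, left-out libraries, sheet sets and the mouse block were alternatives. Relations used 100000 resamples.

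Promoter motifs, marker scaling and the relations were chosen after values had been seen. The 10 genes and the lists (158 symbols, 151 found) were chosen with earlier results of these data known. Named list genes are up to 3 called genes per direction with the smallest p. Mouse numbers pair homogenate and microglia by the protocol, since both come from 1 suspension, and the deviations of the 18 pairs correlated with a median of 0.0435 (range -0.0343 to 0.134). All pairs of libraries within groups differed by more than sampling noise (lowest chi-square per degree of freedom 13.2 over 174 pairs). Counts are not molecules, so limits from depth cover counting error only.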

Additional observations from a re-analysis of the deposited data

Results flagged for a closer look

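A library was picked out where its gap to the nearest library of its group was a large part of the group's range, by Dixon's 95% value. Of 60 sets of values, 14 were picked out. Chance gives about 1 in 20 only where values are normally distributed, which sets with many zeros are not. Il1rn was 0 in 8 of 9 water homogenates and in 8 of 10 ethanol homogenates. Water microglia of mouse 19 had Il1b at 229 CPM (next 97.2 CPM) and Il1rn at 34.7 CPM (next 3.42 CPM), in the library with the neutrophil marker sum of 17668 CPM, and the part of those cells was not tested. Pycard was 75.0 CPM in water microglia of mouse 17. Saline mouse 38 was lowest for Il1b (66.0 CPM) and highest for Il18 (24.7 CPM), and LPS mouse 44 was lowest for Il18 (12.8 CPM).

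In water homogenates, mouse 25 was highest for Il1r1 (17.2 CPM) and Gsdmd (6.75 CPM) and also held the highest endothelial sum, 1003 CPM. Mouse 26 was highest for Il1rap (57.9 CPM), with an oligodendrocyte sum of 12436 CPM. The other homogenate values rest on few reads. They are Il1b at 0.571 CPM (14 reads, water mouse 15) and 0.745 CPM (18 reads, ethanol mouse 9), Il1rn at 0.0956 CPM (4 reads, water mouse 16) and 0.212 CPM (8 reads, ethanol mouse 11), and Casp1 at 2.98 CPM (72 reads, ethanol mouse 9).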

How the results depend on the processing

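Counts of called genes among the 10 stayed within 1.5 times their value under all alternatives run, except that DESeq2 called 1 (Il1b) after LPS. By DESeq2 48, 534, 67, 265 and 326 genes were called in all for ethanol in microglia, ethanol in homogenate, LPS, the interaction and saline against water, where edgeR called 1, 123, 2, 54 and 110. With the mouse as a replicate block the counts were 10 in water mice, 8 in ethanol mice and 0 for the interaction, so that no call among the 10 changed, while all genes called in the interaction went from 54 to 0, and Il1r1 turned to -0.33 in the interaction. Values that changed sign, none called outside marker scaling, were mostly near 0. Il1rn for ethanol in microglia (-1.26) and for saline against water (-1.58) and Il1r1 in the interaction (0.42) were not. Leaving out water mouse 19 alone, Il1rn was 0.61 for ethanol in microglia and 0.27 for saline against water. What lay behind these changes was not tested.

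For ethanol in microglia Il18 became 0.0014 with RLE scaling, 0.0011 with no filter, 0.0019 with a stricter filter and 0.00085 with DESeq2, which gave Il1rn 0.55. Without water mice 19 and 24 Il1rn was 0.70 and Il1rap 0.012. Within sheet set 1 Il1b was -0.15, Il18 0.035, Nlrp3 0.26, Pycard -0.072, Casp1 0.063 and Gsdmd 0.039. Within set 2 Il1b was -0.042, Il1rn 0.36, Il1rap 0.30 and Pycard -0.032. For homogenate Il1rap was 0.0057 with limma voom and 0.048 within set 1, and Casp1 0.63 within set 2. With the share of reads outside genes as a covariate Il1a was 0.54, Il18 -0.077 and Gsdmd 0.099. For the interaction limma voom gave Il1r1 -0.63, and leaving out mice 19 and 24 gave Il1rap 0.017 and Casp1 -0.024. For saline against water Pycard was -0.0092 with RLE scaling, -0.016 with no filter, -0.0035 with a stricter filter, -0.0095 with DESeq2 and -0.029 with limma voom, and Il1rn 0.25 with DESeq2 and 0.37 without mice 19 and 24.

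Marker scaling, added after seeing the data, turned 4 genes and these stayed called unless said in the report. Il18, Pycard, Casp1 and Gsdmd were -5.11, -0.95, -1.06 and -0.53 in water mice and -5.08, -1.21, -0.89 and -0.36 in ethanol mice. Without mice 19 and 24 they were -5.05, -1.02, -0.996 and -0.52. With the replicate block they were -5.12, -0.82, -1.09 and -0.45 in water mice and -5.10, -1.21, -0.76 and -0.29 in ethanol mice.

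Leaving out 1 library at a time, values for ethanol in microglia ranged from -0.098 to 0.31 for Il1b, -0.085 to 0.051 for Il18, -0.034 to 0.072 for Pycard, -0.19 to 0.11 for Il1rap and -1.44 to 0.61 for Il1rn. In homogenate they ranged from -0.58 to 0.048 for Il1a, -0.35 to 0.043 for Casp1, -0.26 to 0.027 for Gsdmd and -0.049 to 0.0998 for Il1rap. After LPS Gsdmd ranged from -0.17 to 0.015. In the interaction the ranges were -0.14 to 0.036 for Il18, -0.14 to 0.12 for Il1rap, -0.045 to 0.34 for Casp1 and -0.045 to 0.26 for Gsdmd. For saline against water they were -0.065 to 0.067 for Pycard, -1.85 to 0.27 for Il1rn, -0.086 to 0.037 for Gsdmd and -0.25 to 0.062 for Casp1.

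Of the 5 genes most like each, the alternatives kept 2 to 3. Depth limits Il1b and Il1rn in homogenates, with 65 and 4 reads over the 9 water libraries.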
